A study of Prunus sibirica with 6 samples.

Results

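PHD and Alfin-like proteins are small families of chromatin readers, and 28 transcript clusters of these families were followed in flower buds of Siberian apricot (Prunus sibirica). They were chosen from a deposited table of 1508 regulator clusters, in which the authors give each cluster a family. Clusters classed there as PHD (23) or Alfin-like (5) were taken, 1 further PHD cluster, MALE STERILITY 1 (MS1), was left out, and none had to be left out for a second listing as SET, Jumonji, SNF2 or ARID. The study compared flower buds of a male sterile clone (clone No. 1) with those of a male fertile clone (clone No. 60), with 3 bud samples each. All libraries carried the same labelled stage, that of microspore development, and no treatment is named. Each group is 1 clone, so sterility cannot be told apart from any other genetic difference between these clones. Expression was given as estimated read counts and as FPKM, fragments scaled to cluster length and library size, which allows levels of clusters of different length to be compared.

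A PHD finger is a small zinc-binding fold that reads the tail of histone H3, in many proteins the state of lysine 4, and so directs a larger protein or complex to active or silent genes. Plants also have Alfin-like proteins, in which a PHD finger at the end of the protein, a reader of trimethylated lysine 4, is joined to a domain of their own. In anthers the family is best known through MS1 and MALE MEIOCYTE DEATH 1 of Arabidopsis, which are needed for late tapetum function and for male meiosis. Domain annotation in the regulator table was compared with the family names. In 27 of the 28 clusters a PHD-finger entry of Pfam was listed, and the remaining one, an ALFIN-LIKE 1 cluster (Cluster-6671.13175), carried the Alfin domain. Many members are multidomain proteins: 9 also had a RING entry, 3 the helicase domain of SNF2 remodellers (PICKLE, CHR4 and MOM1), 2 a SET methyltransferase domain (ATX3 and ATX5) and 2 an acetyltransferase domain. Each cluster is called by its closest Swiss-Prot protein, from Arabidopsis for 21 clusters, another plant for 3 and an animal for 4. These matches were weak for ATXR5, Topors and BAZ1A, with expectation values of 2.5e-07, 2.3e-07 and 4.5e-08. Among the names not known for chromatin are the endosomal VPS9A and the pentatricopeptide protein At1g05670. None of the members was named for OBERON, VERNALIZATION INSENSITIVE 3, EARLY BOLTING IN SHORT DAYS, INHIBITOR OF GROWTH or SIZ1.

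All 28 clusters were expressed in every library, between 3.73 and 85.6 FPKM, and all passed the low-count filter, with a mean of 168 to 4359 counts per library. The regulator table held 957196 to 1122298 counts in the sterile and 1242099 to 1424835 in the fertile libraries. Of 25 marker clusters of floral organs, carpel, ovule, anther, meristem and green tissue, 16 lay higher in all sterile than in all fertile libraries, 5 lower, and 4 overlapped. Over all tested regulators, 68.6% did not overlap. Summed, the marker clusters stood at 632 to 649 FPKM in sterile and 466 to 489 in fertile buds. Much of this gap lies in bHLH10, given below. The floral organ factor SEPALLATA 1 stood at 109 to 115 FPKM in sterile and 109 to 123 in fertile buds. The tapetum factor ABORTED MICROSPORES stood at 29.6 to 30.1 FPKM in sterile and 31.8 to 33.8 in fertile buds in one cluster (Cluster-6671.14745), and at 30.4 to 33.3 and 18.5 to 21.7 FPKM in another (Cluster-6671.7223). The tapetum factor bHLH10 stood at 133 to 138 FPKM in sterile and 23.9 to 25.4 in fertile buds, and MS1 at 1.13 to 2.09 and 0 to 0.04 FPKM. MYB35, also of the tapetum, stood at 2.64 to 3.79 FPKM in sterile and 4.24 to 4.76 in fertile buds (Cluster-6671.4670). A weaker MYB35 cluster (Cluster-2997.0) had 0.72 to 1.39 and 0.16 to 0.52 FPKM. Also lower in sterile buds were FBP2 (79.8 to 96.8 against 105 to 112 FPKM) and MADS6 (Cluster-6671.11534, 33.0 to 35.0 against 39.4 to 43.5 FPKM). Homologs of the floral MADS factor AGL8 differed in both directions. The most abundant (Cluster-6671.11868) stood at 48.6 to 53.5 FPKM in sterile and 29.4 to 32.6 in fertile buds, the next (Cluster-6671.14176) at 2.42 to 4.2 and 7.37 to 8.32 FPKM, and one of the weakest (Cluster-244.0) at 1.02 to 1.85 FPKM in sterile buds and listed at 0 in all fertile libraries. The carpel factor DROOPING LEAF (Cluster-6671.7291) stood at 69.1 to 70.5 FPKM in sterile and 32.6 to 36.1 in fertile buds. The part of such tissue differences in the members' values was not tested. Some counts were fractions, as estimates that share reads between similar clusters give, and such clusters are less certain. Of the members, 6 had whole counts in all 6 libraries (within 0.005), 20 in some, and FORGETTER 1 and an IDM1-named cluster (Cluster-6671.6177) in none. In single libraries 78.2% to 84.7% of all regulator clusters had whole counts. The study's design calls the samples biological replicates without tying them to separate trees, and what the p-values hold is only the variation among these buds. In whole buds, fewer cells of a type and less RNA per cell cannot be told apart.

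One library stood apart in a way that touches these clusters directly. In fertile replicate 1 long clusters had lower values than in fertile replicates 2 and 3. Among 57 tested regulators longer than 6000 bases the median log2 ratio of replicate 1 to the mean of the other two was -0.43, and among 310 of up to 1500 bases it was 0.12. Replicates 2 and 3 differed by medians of -0.01 to 0.02 in all length classes, and each sterile library differed from the other two by -0.02 to 0.03. The members are long, with a median of 4197 bases against 2278 for all tested regulators. Fertile replicate 1 lay below both other fertile libraries in 20 of the 28 members and above both in 6, against 43.5% of the tested regulators that lay below. Across members its departure fell with length (Spearman rho = -0.64, n = 28, the points sharing the same 3 libraries), and across all 1380 tested regulators rho was -0.41. Between fertile replicates 2 and 3 rho was 0.06 across the members, and for the sterile libraries against each other it was 0.38, -0.45 and 0.11. All 5 Alfin-like clusters were higher in fertile replicate 1 than the mean of the other two, with a median log2 ratio of 0.07. Fold changes are therefore given with all libraries and without fertile replicate 1.

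**Figure D1:**
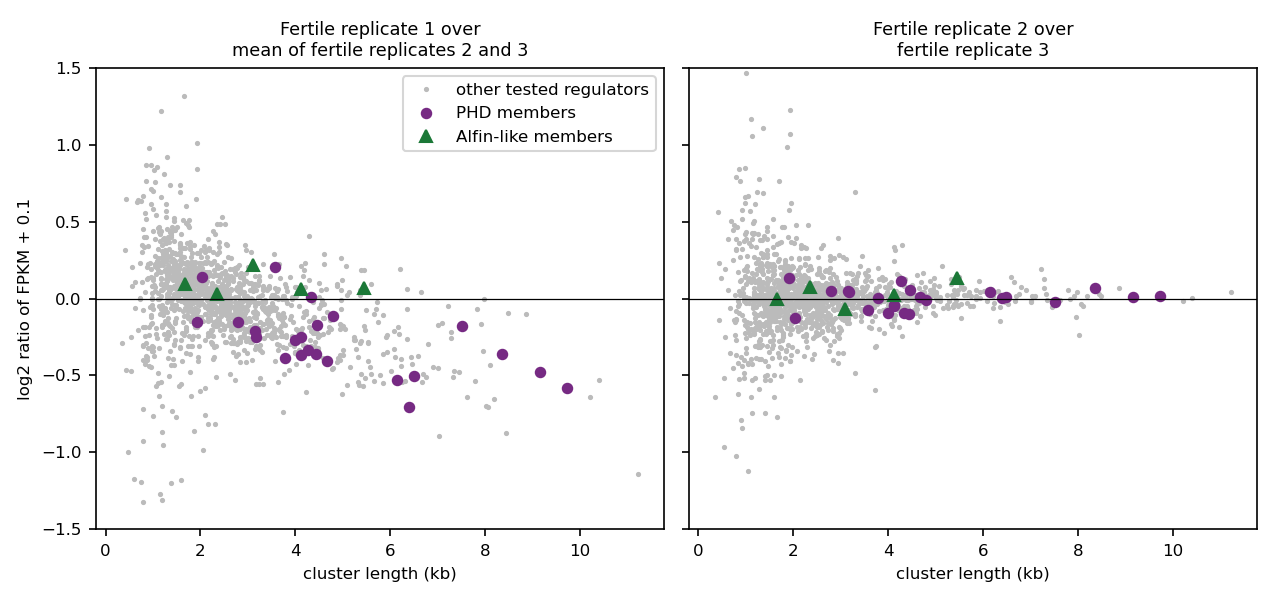
Log2 ratio of FPKM + 0.1 between fertile libraries (y axis) against cluster length in kilobases (x axis), for each tested regulator (grey), the 23 PHD members (circles) and the 5 Alfin-like members (triangles), with 2 regulators outside the left and 4 outside the right panel. Points fall with length for fertile replicate 1 (left) and stay near 0 for replicate 2 over replicate 3 (right).

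Sterile buds were set against fertile buds to find which of these readers differ in RNA level between the clones. Differences were small. PICKLE, a CHD3-type remodeller, and 1 of the 4 clusters named INCREASED DNA METHYLATION 1 (IDM1, Cluster-6671.9048) were higher in sterile buds, by 1.43-fold and 1.42-fold, and no member had a larger change. At an adjusted p under 0.05 by edgeR's quasi-likelihood test, 10 of 28 members were called, 5 of them higher in sterile buds and 5 lower, which leaves 18 uncalled. Among all 1380 tested regulators 57.0% were called, 28.0% higher and 28.9% lower. The median log2 fold change was 0.01 for the members and 0.01 for all regulators, and the median size without sign was 0.14 against 0.31. Outside the set, 422 regulators (30.6%) had a log2 fold change beyond the 0.52 of PICKLE in either direction. In FPKM the 3 libraries of one clone lay apart from the 3 of the other in 14 members, 13 with the sterile clone above and 1 below, beside 68.6% of all tested regulators. The regulators' split by direction was not counted. On this scale the clusters at large ran higher in sterile buds. Their median ratios to the mean over libraries were 1.026 to 1.036 in sterile and 0.961 to 0.985 in fertile libraries. By edgeR 14 of the 28 members had a positive log2 fold change.

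Without fertile replicate 1, 15 of 28 members were called, 5 higher and 10 lower, beside 65.3% of 1387 regulators (32.8% higher, 32.5% lower). The biological coefficient of variation, the spread between replicates beyond counting, was 6.82% with all libraries and 2.59% without this one. Of the 10 members called with all libraries, 8 were called in the same direction without it, 4 higher (PICKLE, IDM1 Cluster-6671.9048, At4g02110 and PHRF1) and 4 lower (Topors, PRHA, ORC1A and ALFIN-LIKE 1 Cluster-6671.9938). Another 7 were called only after it was left out, 6 of them lower, and the calls of BAZ1A and ATXR5 were lost. Of the 7 members above 6000 bases 1 was called with all libraries and 6 without fertile replicate 1, and among all 57 regulators of that length the called share was 24.6% and 68.4%. Leaving out sterile replicate 1 gave 3 higher and 3 lower members, beside 25.8% and 25.2% of the regulators. Leaving out sterile replicate 3 gave 2 higher and 4 lower, beside 22.8% and 27.6%.

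The balance of directions depended on the scale. TMM scaling sets the fold changes against the bulk of the regulators. When the counts were scaled by the whole-library totals that counts, lengths and FPKM imply, the median of all regulators moved from 0.01 to 0.15 and 9 members were called higher and 0 lower, beside 41.1% and 21.5% of the regulators (62.6% in all). With limma on log2(FPKM + 1) over 21730 clusters 7 members were called higher and 0 lower, beside 29.1% and 20.7% of those clusters (49.8% in all). Of 1327 regulators in this limma fit, 507 were called higher and 248 lower. At an unadjusted p of 0.05, 2 members were lower with the implied totals and 1 with limma, and shares of all clusters at that p were not counted. Each of the 5 members called lower thus lost its call on both of these scales. Without fertile replicate 1, limma called 8 members higher and 3 lower, beside 33.3% and 20.9% of the clusters. The 6 members that edgeR called lower only without that library were not among these 3. Leaving out sterile replicate 1 left limma with 4 members called higher and 0 lower, beside 21.4% and 19.2%, and leaving out sterile replicate 3 with 3 and 0, beside 21.3% and 18.5%.

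**Figure D2:**
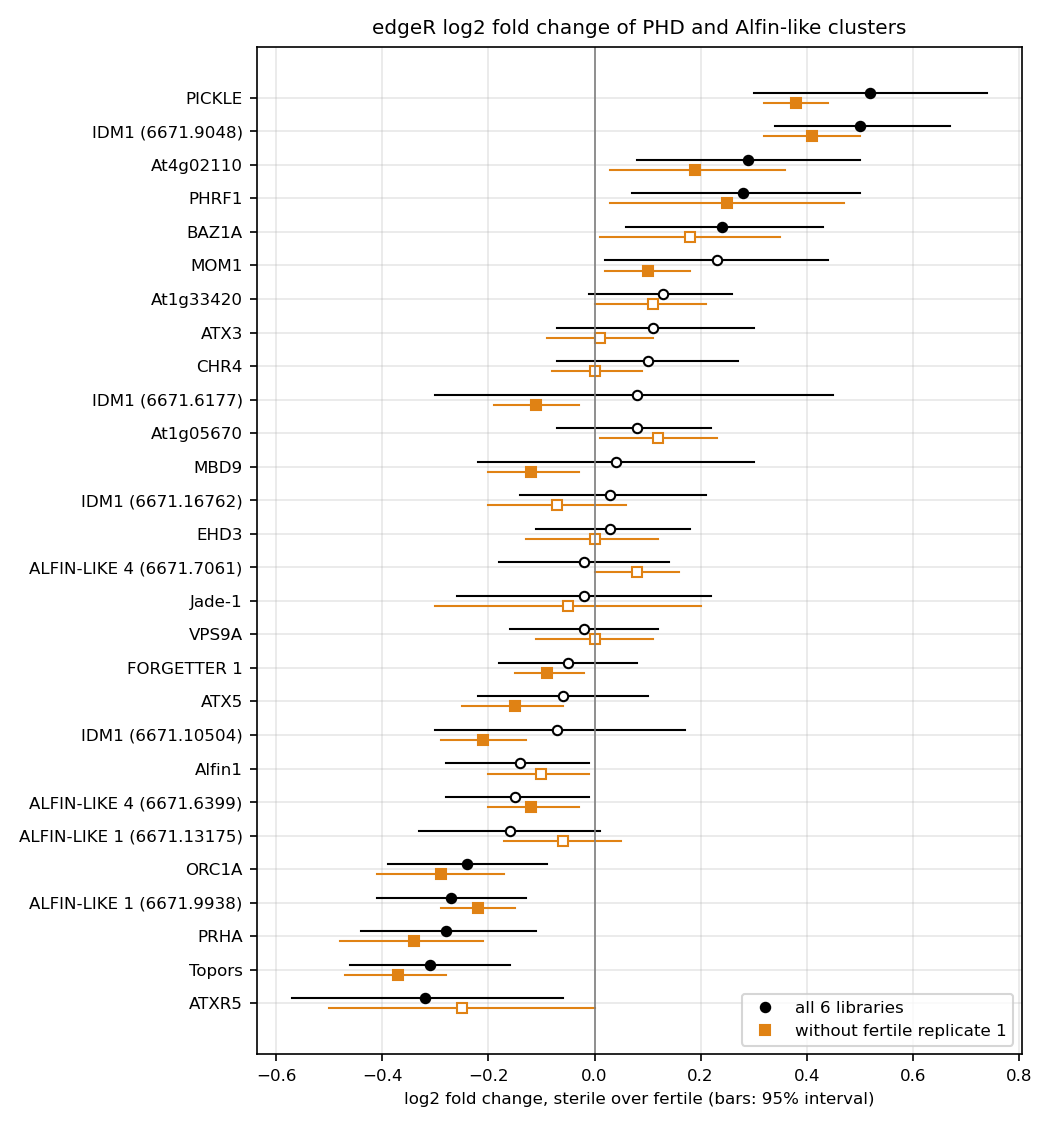
Log2 fold change of each member, sterile over fertile (x axis), by edgeR with all 6 libraries (circles) and without fertile replicate 1 (squares), with 95% intervals as bars and filled symbols for an adjusted p under 0.05. PICKLE and IDM1 (Cluster-6671.9048) lie at 0.52 and 0.50, and each of the 7 clusters above 6000 bases moves left when fertile replicate 1 is left out.

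Among the chromatin helicases 1 of 4 was called, higher in sterile buds, beside 57.0% of all tested regulators. Leaving out fertile replicate 1 gave 2 higher and 1 lower, beside 65.3% of the regulators. PICKLE (Cluster-6671.10899, 6490 bases) is a CHD3-type remodeller that in Arabidopsis keeps embryonic genes silent after germination and is linked to trimethylation of lysine 27 of histone H3. It had 44.2, 42.4 and 42.0 FPKM in the sterile libraries, against 21.3, 30.4 and 30.1 FPKM in the fertile ones. All sterile libraries lay above all fertile ones, and fertile replicate 1 was the lowest, at 0.705 of the mean of the other two. The log2 fold change was 0.52 ± 0.10 (SE, adjusted p = 0.000826 in edgeR), and 0.38 ± 0.03 without fertile replicate 1 (adjusted p = 3.56e-30). PICKLE stayed called and positive in all 14 alternatives, from 0.38 to 0.65, with adjusted p between 3.56e-30 and 0.0167. The authors' deposited table gives it a log2 fold change of 0.58 and a q-value of 3.8e-08.

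MOM1, which in Arabidopsis keeps transposons silent without a matching loss of DNA methylation, had 12.7, 11.97 and 12.5 FPKM in sterile buds, against 7.60, 10.7 and 10.6 FPKM in fertile buds. The groups did not overlap. Its log2 fold change of 0.23 ± 0.10 was not called with all libraries (adjusted p = 0.0636 in edgeR), and 0.10 ± 0.04 was called without fertile replicate 1 (adjusted p = 0.0158), where the estimate was smaller and its error smaller still. It was also called without fertile replicate 2 (0.30, adjusted p = 0.0203 in edgeR) or fertile replicate 3 (0.29, adjusted p = 0.0299), with the implied totals (0.36, adjusted p = 0.0266) and with regulator table totals (0.27, adjusted p = 0.0245). CHR4, a second CHD3-type remodeller that acts with floral MADS factors in Arabidopsis, had 11.2, 10.1 and 10.3 FPKM in sterile buds, against 7.45, 9.84 and 9.39 FPKM in fertile buds. At 0.10 ± 0.08 it was not called, and its estimate was 0.00 without fertile replicate 1. It was called with the implied totals (0.24, adjusted p = 0.0449 in edgeR). FORGETTER 1, a strawberry notch protein of heat stress memory in Arabidopsis, stood at 28.4, 27.5 and 28.0 FPKM in sterile buds, against 24.2, 27.1 and 27.5 FPKM in fertile buds. Its log2 fold change was -0.05 ± 0.06, not called, and -0.09 ± 0.03 without fertile replicate 1 (adjusted p = 0.0145 in edgeR), a fold of 0.942. On the FPKM scale limma put it at 0.09 with all libraries and 0.03 without that one, not called in either.

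**Figure D3:**
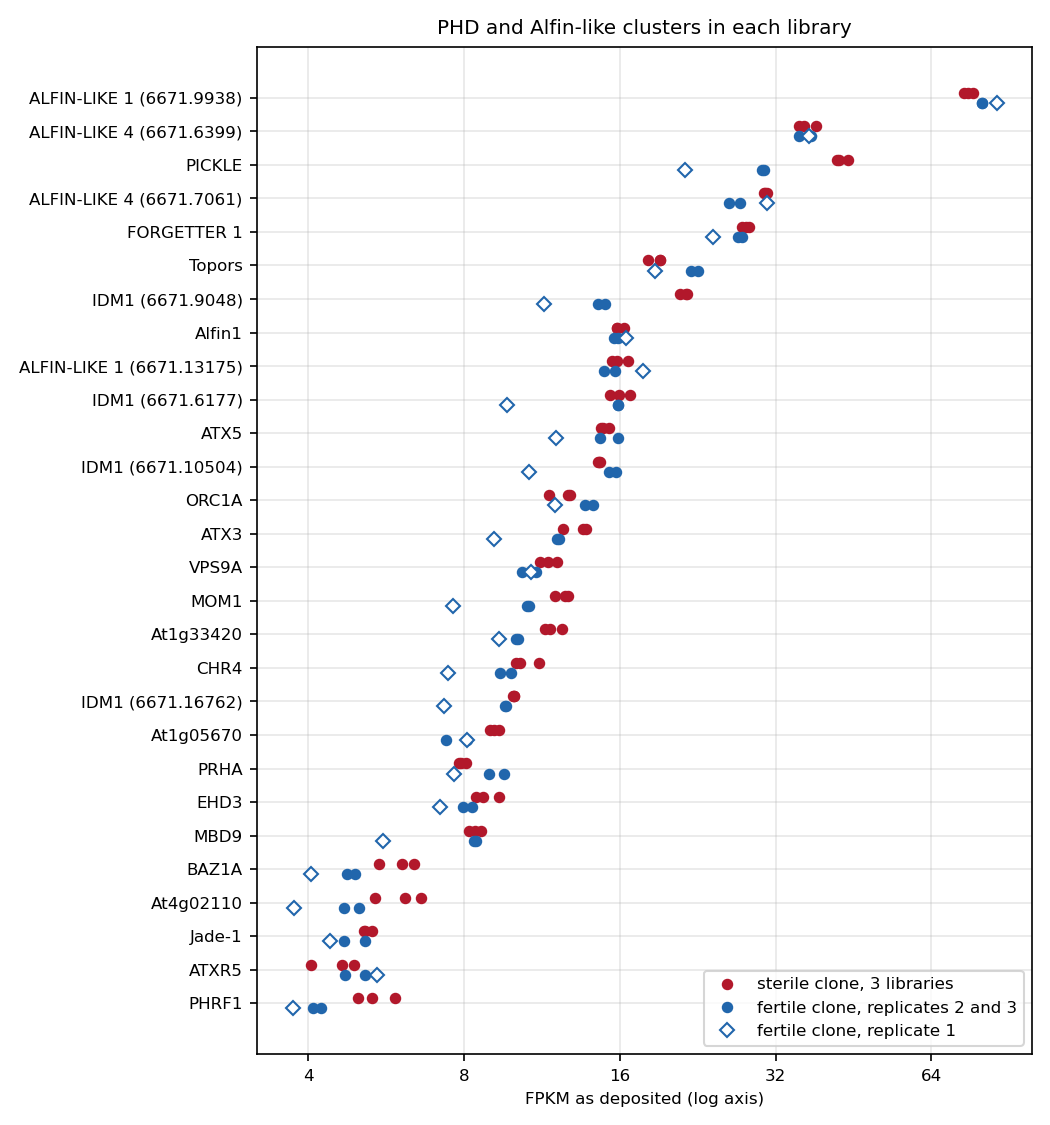
FPKM of the 28 members in each library (log axis), with sterile libraries in red and fertile libraries in blue below them, and fertile replicate 1 as an open diamond. In 13 members, PICKLE and IDM1 (Cluster-6671.9048) among them, all sterile points lie right of all fertile points. Of all tested regulators 68.6% did not overlap, and their split by direction was not counted. Clusters at large ran higher in sterile buds on this scale. In 20 members the open diamond lies left of both other fertile points, as in 43.5% of the tested regulators.

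Of 5 clusters named for DNA methylation control, 1 was called, higher in sterile buds, beside 57.0% of all tested regulators. Leaving out fertile replicate 1 gave 1 higher and 3 lower, beside 65.3% of the regulators. In Arabidopsis IDM1 is a histone acetyltransferase that reads unmethylated lysine 4 of histone H3 and methylated DNA, and helps the demethylase ROS1 reach its targets. Best hits to IDM1 were found in 4 clusters, 2 of which (Cluster-6671.10504 and Cluster-6671.16762) carried the acetyltransferase domain. The cluster that rose was not among these: Cluster-6671.9048 had a PHD and a RING entry, a weak IDM1 hit (expectation value 8.6e-15) and an uncharacterised Prunus mume protein as its nearest relative. It stood at 21.5, 20.9 and 21.5 FPKM in sterile buds, against 11.4, 14.5 and 15.0 FPKM in fertile buds. The clones did not overlap, with or without fertile replicate 1. Its log2 fold change was 0.50 ± 0.08 (adjusted p = 2.86e-05 in edgeR), and 0.41 ± 0.05 without fertile replicate 1 (adjusted p = 3.8e-18). In all 14 alternatives it stayed called and positive, from 0.41 to 0.64, with adjusted p between 3.8e-18 and 0.0029.

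The other three IDM1-named clusters and MBD9 were not called with all libraries. The cluster with the strongest IDM1 hit (Cluster-6671.10504) had 14.6, 14.7 and 14.5 FPKM in sterile buds, against 10.7, 15.7 and 15.3 FPKM in fertile buds. Fertile replicate 1 lay below and the other two above all sterile libraries. The log2 fold change was -0.07 ± 0.11 with all libraries, and -0.21 ± 0.04 without fertile replicate 1 (adjusted p = 9.53e-07 in edgeR), so that the call came only without that library. Cluster-6671.6177, whose counts were shared with other clusters in every library, had 16.7, 15.3 and 15.97 FPKM in sterile buds, against 9.70, 15.9 and 15.9 FPKM in fertile buds. Its estimate turned from 0.08 ± 0.16 to -0.11 ± 0.04 when fertile replicate 1 was left out (adjusted p = 0.724 and 0.00834 in edgeR). MBD9, a bromodomain protein named for a methyl-CpG-binding domain, acts in flowering time and histone variant H2A.Z deposition in Arabidopsis. It had 8.39, 8.18 and 8.62 FPKM in sterile buds, against 5.58, 8.43 and 8.35 FPKM in fertile buds. It likewise turned from 0.04 ± 0.12 to -0.12 ± 0.04 (adjusted p = 0.81 and 0.0105 in edgeR). On the FPKM scale without that library, limma called none of these 3, with Cluster-6671.10504 at -0.08 (adjusted p = 0.142), Cluster-6671.6177 at 0.01 and MBD9 at 0.00. Cluster-6671.16762, at 9.94 to 10.0 FPKM in sterile and 7.32 to 9.63 in fertile buds, was not called in either fit (0.03 and -0.07).

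The Alfin-like clusters included the most abundant member and differed by log2 fold changes of -0.27 to 0.08. ALFIN-LIKE 1 (Cluster-6671.9938, 1665 bases) had the highest level of the whole set, with 75.2, 73.9 and 77.1 FPKM in sterile buds, against 85.6, 80.1 and 80.2 FPKM in fertile buds. All sterile libraries lay below all fertile ones. The log2 fold change was -0.27 ± 0.07 (adjusted p = 0.00184 in edgeR), and -0.22 ± 0.04 without fertile replicate 1 (adjusted p = 3.1e-08). It was not called with library totals implied by FPKM (-0.14, adjusted p = 0.0679) and with limma on FPKM (-0.12, adjusted p = 0.0573). ALFIN-LIKE 4 (Cluster-6671.6399) had 36.3, 38.2 and 35.5 FPKM in sterile buds, against 37.1, 37.4 and 35.5 FPKM in fertile buds, and the clones overlapped. At -0.15 ± 0.07 it was not called (adjusted p = 0.065 in edgeR), and it was called without fertile replicate 1 (-0.12, adjusted p = 0.0108), fertile replicate 3 (-0.18, adjusted p = 0.0479) or sterile replicate 2 (-0.21, adjusted p = 0.0375). On the FPKM scale without fertile replicate 1 limma put it at 0.01, not called.

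The Alfin1-named cluster, whose alfalfa namesake is known from root growth and salt tolerance, stood at 15.8 to 16.3 FPKM in sterile and 15.6 to 16.5 in fertile buds (log2 fold change -0.14 ± 0.06, adjusted p = 0.0659 in edgeR, and -0.10, adjusted p = 0.0518, without fertile replicate 1). The second ALFIN-LIKE 1 cluster (Cluster-6671.13175), at 15.4 to 16.6 FPKM in sterile and 14.9 to 17.8 in fertile buds, was not called at -0.16 ± 0.08 or, without fertile replicate 1, at -0.06, and was called without fertile replicate 2 (-0.23, adjusted p = 0.0262 in edgeR). A pentatricopeptide-named cluster with the Alfin domain, At1g05670, had 8.99 to 9.33 FPKM in sterile and 7.37 to 8.10 in fertile buds. These ranges did not overlap, but the log2 fold change of 0.08 ± 0.07 was not called on the regulator scale, nor was 0.12 without fertile replicate 1 (adjusted p = 0.0565 in edgeR), whereas limma on FPKM (0.20, adjusted p = 0.0335) and edgeR with the implied totals (0.22, adjusted p = 0.0089) called it. So 1 of 5 Alfin-like clusters was lower, 4 were not called and 0 were higher by edgeR. Of all regulators 28.9% were lower and 28.0% higher. At an unadjusted p of 0.05 by edgeR, 0 Alfin-like clusters were higher and 3 lower, and the share of all regulators at that p was not counted. DESeq2 gave 0 higher. With the implied totals and with limma on FPKM, 1 of these 5 clusters was called higher and 0 lower. Their summed level was 152, 153 and 154 FPKM in the sterile libraries, against 165, 156 and 154 FPKM in the fertile ones. A further ALFIN-LIKE 4 cluster (Cluster-6671.7061), which the authors class as PHD although it carries the Alfin domain, had 30.6, 30.4 and 30.8 FPKM in sterile buds, against 30.8, 25.9 and 27.4 FPKM in fertile buds, and was not called (-0.02 ± 0.08). Without fertile replicate 1 edgeR gave 0.08, not called (adjusted p = 0.0772), and limma on FPKM called it higher at 0.19 (adjusted p = 0.00546).

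Of 3 clusters named for histone methyltransferases 1 was called, ATXR5, lower in sterile buds, beside 57.0% of all tested regulators. Leaving out fertile replicate 1 gave 0 higher and 1 lower, ATX5, beside 65.3% of the regulators. ATX3 and ATX5, which in Arabidopsis methylate lysine 4 of histone H3, had 12.4, 13.8 and 13.6 against 9.14, 12.2 and 12.1 FPKM (ATX3) and 15.2, 14.7 and 14.8 against 12.1, 15.8 and 14.6 FPKM (ATX5) in sterile against fertile buds. With all libraries neither was called, at 0.11 ± 0.09 and -0.06 ± 0.08. Without fertile replicate 1 ATX3 was at 0.01, and ATX5 was called lower at -0.15 ± 0.05 (adjusted p = 0.00325 in edgeR), but not by limma on FPKM (-0.02, adjusted p = 0.709). The ATXR5-named cluster, a weak hit to a methyltransferase of lysine 27 of histone H3 and without a SET entry, had 4.90, 4.65 and 4.05 FPKM in sterile buds, against 5.42, 4.70 and 5.14 FPKM in fertile buds. The ranges overlapped. Its log2 fold change of -0.32 ± 0.12 was called (adjusted p = 0.0321 in edgeR), and the call was lost without fertile replicate 1 (-0.25, adjusted p = 0.0762), fertile replicate 3 (-0.32, adjusted p = 0.0592) or sterile replicate 3 (-0.27, adjusted p = 0.105). It was also lost with DESeq2 (-0.33, adjusted p = 0.0761), regulator table totals (-0.28, adjusted p = 0.0625), the implied totals (-0.18, adjusted p = 0.176) and limma on FPKM (-0.14, adjusted p = 0.257), so that 7 of 14 alternatives ended it.

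Both members named after RING-type proteins, a class with many ubiquitin ligases, were called, in opposite directions. Of all tested regulators 57.0% were called. Topors, named after a fruit fly ubiquitin and SUMO ligase, had 19.1, 19.1 and 18.1 FPKM in sterile buds, against 18.7, 22.6 and 21.9 FPKM in fertile buds. Sterile libraries lay below fertile replicates 2 and 3 and beside fertile replicate 1. The log2 fold change was -0.31 ± 0.07 (adjusted p = 0.00098 in edgeR), and -0.37 ± 0.05 without fertile replicate 1 (adjusted p = 1.6e-13). It was not called with the implied totals (-0.17, adjusted p = 0.0527) or by limma on FPKM (-0.16, adjusted p = 0.134). PHRF1, named after a human PHD and RING protein, had the lowest mean of the set over all 6 libraries, with 4.98, 5.87 and 5.32 FPKM in sterile buds, against 3.73, 4.23 and 4.09 FPKM in fertile buds. The clones did not overlap. At 0.28 ± 0.10 it was called (adjusted p = 0.0262 in edgeR) and at 0.25 ± 0.11 without fertile replicate 1 (adjusted p = 0.0383), but not without fertile replicate 3 (0.28, adjusted p = 0.0517), sterile replicate 2 (0.18, adjusted p = 0.206) or sterile replicate 3 (0.27, adjusted p = 0.0827), nor with DESeq2 (0.27, adjusted p = 0.087).

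Of the clusters named for acetylation or remodelling partners in animals, BAZ1A, a partner of ISWI remodellers in human cells, had 6.06, 5.47 and 6.39 FPKM in sterile buds, against 4.05, 4.76 and 4.93 FPKM in fertile buds. Although the clones did not overlap, the call at 0.24 ± 0.09 (adjusted p = 0.0262 in edgeR) was lost without fertile replicate 1 (0.18, adjusted p = 0.0504), sterile replicate 1 (0.26, adjusted p = 0.0652) or sterile replicate 3 (0.17, adjusted p = 0.208), with DESeq2 (0.24, adjusted p = 0.0793) and without the low-count filter (0.21, adjusted p = 0.0546). Jade-1, named after a subunit of HBO1 acetyltransferase complexes in animals, was not called, at 5.13 to 5.31 FPKM in sterile and 4.41 to 5.15 in fertile buds (-0.02 ± 0.11, and -0.05 without fertile replicate 1).

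ORC1A, the large subunit of the origin recognition complex, whose PHD finger in Arabidopsis binds trimethylated lysine 4 of histone H3, had 11.7, 12.8 and 12.7 FPKM in sterile buds, against 12, 14.2 and 13.7 FPKM in fertile buds. Its log2 fold change was -0.24 ± 0.07 (adjusted p = 0.00839 in edgeR), and -0.29 ± 0.06 without fertile replicate 1 (adjusted p = 8.21e-06). The homeodomain protein PRHA had 7.82, 7.88 and 8.06 FPKM in sterile buds, against 7.65, 8.95 and 9.55 FPKM in fertile buds, with a log2 fold change of -0.28 ± 0.08 (adjusted p = 0.00545 in edgeR), and -0.34 ± 0.07 without fertile replicate 1 (adjusted p = 1.61e-06). Fertile replicates 2 and 3 lay above all sterile libraries in both, while fertile replicate 1 lay among the sterile libraries for ORC1A and below them for PRHA. Leaving out sterile replicate 1 ended the call of ORC1A (-0.18, adjusted p = 0.101) and of PRHA (-0.25, adjusted p = 0.0516), and neither was called with the implied totals (-0.11 and -0.14) or by limma on FPKM (-0.09 and -0.12). At4g02110, a BRCT-domain protein whose orthology entry names topoisomerase II binding protein 1, a factor of DNA damage signalling, had 6.59, 5.37 and 6.16 FPKM in sterile buds, against 3.76, 4.68 and 5.02 FPKM in fertile buds. The clones did not overlap, at 0.29 ± 0.10 (adjusted p = 0.0192 in edgeR) and 0.19 ± 0.08 without fertile replicate 1 (adjusted p = 0.0277). This call was lost without sterile replicate 1 (0.25, adjusted p = 0.107) or sterile replicate 3 (0.25, adjusted p = 0.131).

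At1g33420 belongs in Arabidopsis to the same PHD group as MS1 and MALE MEIOCYTE DEATH 1. It had 11.5, 11.7 and 12.4 FPKM in sterile buds, against 9.33, 10.1 and 10.2 FPKM in fertile buds. All sterile libraries lay above all fertile ones, yet the log2 fold change of 0.13 ± 0.06 was not called on the regulator scale (adjusted p = 0.098 in edgeR, and 0.0627 without fertile replicate 1). It was called with the implied totals (0.26, adjusted p = 0.0026), with regulator table totals (0.17, adjusted p = 0.0288) and by limma on FPKM (0.24, adjusted p = 0.0138). A cluster named MALE MEIOCYTE DEATH 1, which the authors class as PLATZ and which is no member, had 41 to 52 counts in the sterile and 42 to 59 in the fertile libraries (log2 fold change 0.12 ± 0.21, interval -0.31 to 0.56, adjusted p = 0.643 in edgeR, and 0.01 without fertile replicate 1). EHD3, named after a rice promoter of flowering, was not called at 8.45 to 9.33 FPKM in sterile and 7.20 to 8.28 in fertile buds (0.03 ± 0.07, and 0.00 without fertile replicate 1), nor was VPS9A at 11.2 to 12.1 and 10.3 to 11.04 FPKM (-0.02 ± 0.07, and 0.00 without fertile replicate 1). Over the 18 members not called with all libraries, the 95% intervals of the log2 fold change ran from -0.33 to 0.45.

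Summed over the PHD class, RNA stood at 324, 319 and 321 FPKM in the sterile libraries, against 244, 294 and 294 FPKM in the fertile ones. The low fertile value is that of replicate 1. Together the 28 members took 1.95% of the FPKM of all regulators in sterile and 1.89% in fertile buds.

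Other chromatin families of the table were called in shares of 42.2% (SET and Jumonji), 46.3% (SNF2, SWI/SNF, ARID and HMG) and 45.5% (GNAT), beside 35.7% of the PHD and Alfin-like clusters. Among SET and Jumonji clusters, which write and erase histone methylation, 9 were higher, 10 lower and 26 not called of 45 tested, and 12 higher and 19 lower without fertile replicate 1. Among SNF2, SWI/SNF, ARID and HMG clusters, which move nucleosomes or bend DNA, 15 were higher, 16 lower and 36 not called of 67, and 17 higher and 27 lower without that library. Among GNAT acetyltransferases 2 were higher, 8 lower and 12 not called of 22, and 3 higher and 8 lower without it. Median sizes of the log2 fold change without sign were 0.17, 0.21 and 0.25 in these groups, beside 0.14 for the PHD and Alfin-like clusters. Median lengths were 4486, 4069 and 1884 bases, and the medians of fertile replicate 1 over the other fertile libraries -0.20, -0.25 and 0.13 on the log2 scale, beside -0.23 for the PHD and Alfin-like clusters. The largest changes in the SET, SNF2, SWI/SNF-BAF60b and GNAT families reached 1.59, 1.84, 1.85 and -3.81, beyond any PHD or Alfin-like member. Whether the families differ was not tested.

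**Figure D4:**
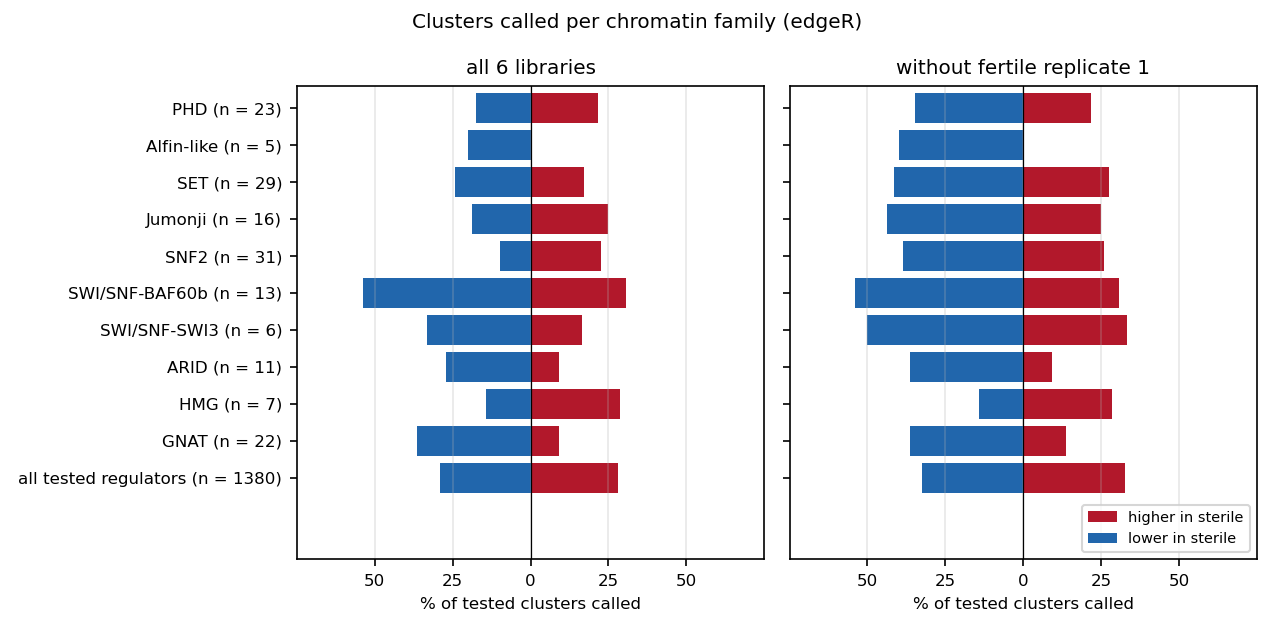
Share of tested clusters called higher (right, red) and lower (left, blue) in sterile buds by edgeR at an adjusted p of 0.05, per chromatin family, with all 6 libraries (left panel) and without fertile replicate 1 (right panel). The lower share of the PHD clusters grows from 4 of 23 to 8 of 23 when that library is left out, and their higher share stays at 5 of 23. For all tested regulators the lower share is 28.9% and 32.5%, and the higher share 28.0% and 32.8%.

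The authors' deposited table calls a regulator changed at a q-value under 0.05 and more than a 2-fold change, and by that rule 12.4% of its 1508 clusters and 0 of the 28 members were called. Without the fold minimum, 7 members had a q-value under 0.05 in the authors' deposited table, 5 higher (PICKLE, IDM1 Cluster-6671.9048, BAZ1A, At4g02110 and MOM1) and 2 lower (Topors and ALFIN-LIKE 1 Cluster-6671.9938), beside 25.8% and 19.1% of its clusters.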

How the data were processed

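RNA-seq of flower buds was analysed, 3 libraries from each clone. RSEM, Bowtie2 and CASAVA are named in the submitters' processing notes. No assembler, filter or build is named in these sources. Estimated counts and FPKM per cluster were deposited by the authors, with cluster lengths, and with the log2 fold change and q-value of their own comparison, per the file headers. A second deposited table held FPKM of 34377 clusters, with identical FPKM for shared clusters. Clusters listed more than once (114) were used once. No gene sequences or cluster positions were used here.

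Estimated counts were rounded and tested over the whole regulator table with edgeR 4.0.16 (R 4.3.3): filterByExpr left out 128 clusters with 0.0424% of the counts, and library scales came from TMM. Robust glmQLFit and glmQLFTest supplied the p-values, with Benjamini-Hochberg adjustment over all tested clusters. The SE is the fold change over the root of its F statistic. FPKM were tested with limma 3.58.1 (with trend and robust) after log2(FPKM + 1), where 3 or more libraries reached an FPKM of 1. That scale understates changes of low clusters. Alternatives were DESeq2 1.42.0, other scales, no filter, pseudocounts of 0.1 and 5, a replicate block, a fold minimum and leaving out each library. Removal of a smooth trend on length in each library was added after the data were seen. It also removes any true length-related difference between clones. For single members 14 alternatives were counted. In edgeR these were other scales, no filter, the replicate block, the length trend and leaving out each library. DESeq2 and limma on FPKM completed them. The fold minimum and variants of the limma fit were not counted. Implied depth was 16.2 to 19.0 M fragments in sterile and 22.1 to 25.3 M in fertile libraries. Its source is a robust regression of count over FPKM on length.

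Members and lists were chosen with earlier results of these data known. Named by rule were the Alfin-like, ORC1 and homeobox clusters, the 10 called members and the 5 most abundant ones. The remaining members were named after their values were seen.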

Additional observations from a re-analysis of the deposited data

How the results depend on the processing

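PICKLE and IDM1 (Cluster-6671.9048) kept direction and call in all 14 alternatives counted for single members, which set no fold minimum. None of the 10 called members turned direction in any of them. Of 392 values of single members under an alternative, 309 kept direction and side of the threshold, 28 lost and 25 gained a call, and 30 turned sign, all 30 in members not called with all libraries. Of these 30, 2 also gained a call, IDM1 (Cluster-6671.6177) and MBD9 without fertile replicate 1. From 5 higher and 5 lower members by edgeR, beside 28.0% and 28.9% of all regulators, the counts became 3 higher and 4 lower with DESeq2 (22.6% and 24.9% of all), 9 higher and 0 lower with library totals implied by FPKM (41.1% and 21.5%), 7 higher and 0 lower with limma on FPKM (29.1% and 20.7% of all clusters), 4 higher and 8 lower without the low-count filter (24.2% and 29.3%), 5 higher and 8 lower with the length trend removed (30.0% and 31.3%), and 0 and 0 at 1.5-fold or more (11.5% and 13.7%) by edgeR with TMM (also 0 with DESeq2, and 0 at an unadjusted p of 0.05 by either, but 2, PICKLE and IDM1 Cluster-6671.9048, by edgeR with the implied totals and by limma). Except for the adjusted p by edgeR with TMM, shares of all clusters at 1.5-fold or more were not counted. Leaving out 1 library gave 2 to 6 higher and 3 to 10 lower by edgeR, beside 22.8% to 32.8% and 25.2% to 32.5% of all regulators. From 7 higher and 0 lower by limma, rescaling by median ratios gave 4 higher and 2 lower (23.8% and 24.5% of all clusters). With 1 library left out limma gave 3 to 8 higher and 0 to 3 lower, beside 21.3% to 33.3% and 15.9% to 20.9% of all clusters. Replicate numbers did not pair the clones: deviations of same-numbered libraries correlated at 0.017, 0.027 and 0.009, and with the replicate block edgeR called 6 higher and 5 lower (28.2% and 28.4% of all), with MOM1 gained (0.24, adjusted p = 0.0302), and limma 5 higher and 0 lower (26.8% and 19.2%). Calls gained without the low-count filter were those of ALFIN-LIKE 1 (Cluster-6671.13175, -0.19), ALFIN-LIKE 4 (Cluster-6671.6399, -0.18) and Alfin1 (-0.17), and with the length trend removed those of ALFIN-LIKE 4 (Cluster-6671.6399, -0.16), Alfin1 (-0.16) and FORGETTER 1 (-0.15). The summed level of the members, 474 FPKM (sterile) and 436 (fertile), was 461 (sterile) and 446 (fertile) after rescaling, and 399 in sterile and 354 in fertile buds without ALFIN-LIKE 1 (Cluster-6671.9938).

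Sign changes by scale were these. With the implied totals, ALFIN-LIKE 4 (Cluster-6671.7061), Jade-1 and VPS9A stood at 0.12 each, FORGETTER 1 at 0.09 and IDM1 (Cluster-6671.10504) and ATX5 at 0.07 each. With limma on FPKM they stood at 0.13, 0.11, 0.11, 0.09, 0.08 and 0.08. With regulator table totals ALFIN-LIKE 4 (Cluster-6671.7061) and Jade-1 stood at 0.03 and VPS9A at 0.02. With the length trend removed MBD9 stood at -0.08 and CHR4 at -0.01. Leaving out 1 library moved ALFIN-LIKE 4 (Cluster-6671.7061) from -0.08 to 0.08, ATX5 from -0.15 to 0.01, EHD3 from 0.00 to 0.07, Jade-1 from -0.07 to 0.03, MBD9 from -0.12 to 0.13, VPS9A from -0.08 to 0.03 and the IDM1 clusters from -0.21 to 0.02 (Cluster-6671.10504), -0.07 to 0.09 (Cluster-6671.16762) and -0.11 to 0.18 (Cluster-6671.6177). With 3 libraries a clone an exact permutation test of 1 member cannot go below 0.1.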
